A study of Mus musculus with 6 samples.

Results

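Expression of 10 genes of innate microbe sensing was followed in LSK cells, the Lin- Sca1+ c-Kit+ cells of the marrow, among which are blood stem cells and early multipotent progenitors. The genes were the Toll-like receptors Tlr1, Tlr2, Tlr4, Tlr6, Tlr7 and Tlr9, the receptor partners Cd14 and Ly96, the related receptor Cd180 and the adaptor Myd88. They were chosen by name, and all 10 were measured among the 18193 genes of the arrays. Every probe set that the platform annotation gives to 1 of these genes alone was taken, which made 15 of 45037 probe sets. Tlr4 had 4 probe sets, Tlr7 had 3 and the other 8 genes had 1 each.

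The tested samples were 3 pools of LSK cells from IkL/L mice, and they were set against 3 samples of LSK cells from wild-type (WT) mice, all C57BL/6 and 6 to 7 weeks old. IkL/L is a hypomorphic mutation of Ikzf1, so that its product Ikaros, a zinc finger transcription factor of blood cells, is scarce rather than absent. Cells of 2 mice were pooled for each IkL/L sample, and each WT sample came from 1 mouse. Mature cells bearing B220, CD11b, Gr1 or Ter119 had been removed before the sort.

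Toll-like receptors bind conserved microbial molecules. At the cell surface, Tlr4 binds bacterial lipopolysaccharide together with Ly96 (MD-2), with the help of Lbp and Cd14, which carry the lipid to it, and Tlr2 binds bacterial lipoproteins as a dimer with Tlr1 or Tlr6. Tlr7 and Tlr9 lie in endosomes, where they bind single-stranded RNA and CpG-rich DNA, and Cd180 is a relative of Tlr4 that is held at the surface by Ly86 (MD-1). Myd88 connects these Toll-like receptors to the Irak kinases, Traf6 and NF-kB. Stem and progenitor cells are known to carry some of these receptors.

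Ikzf1 read 10.77, 10.85 and 10.93 on IkL/L 1, 2 and 3, against 11.57, 11.59 and 11.44 on WT 1, 2 and 3 (log2 RMA values, a scale on which 1 unit is a doubling). The sort marker Kit (11.07 to 11.35 in IkL/L, 11.21 to 11.50 in WT) and the progenitor gene Cd34, which the sort did not use (12.07 to 12.21 in IkL/L, 12.13 to 12.27 in WT), were high on all 6 arrays, and Ly6a, which encodes Sca1, was not analysed here. Array medians lay between 4.79 and 4.88, and a value near or under them cannot be told from background. WT 2 and IkL/L 1 stood apart from their groups. WT 2 lay at -52.7 on the first principal component, against -18.6 and 3.6 for WT 1 and WT 3. IkL/L 1 stood at 12.33 for Xist, an RNA made from the inactive X chromosome of females, against 4.65 to 5.29 on the other 5 arrays. The Y-linked Eif2s3y read 7.78 on IkL/L 1, against 9.01 to 9.53 on the others, so that IkL/L 1 differed from the other arrays in these sex-linked transcripts. The study used mice of both sexes, the labels do not give the sex behind each sample, and these genes were chosen after their values were seen.

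Of the 10 genes, 1 rose and none fell in IkL/L LSK cells. Cd14, the lipopolysaccharide carrier, was higher, with readings 0.93 apart on the log2 scale, a value that does not measure the size of the change because its WT level cannot be told from background. Tlr7 stood lower (-0.88) and missed the threshold, Tlr2 stood 0.57 higher without passing, and the differences of the other 7 genes lay between -0.16 and 0.28. Over all genes, 0.989% passed the test (180 of 18193), with 0.748% higher and 0.242% lower. The test was limma with a threshold of 0.05 on the p-value adjusted across the whole array. The values of the groups did not overlap in 4 of the 10 genes (Cd14, Tlr2 and Tlr4 higher, Tlr7 lower), where 17.2% of all genes were apart in this way (7.62% higher and 9.59% lower). The same 4 genes had an unadjusted p under 0.05, against 11.2% of all genes (5.83% higher and 5.35% lower). The median difference of the 10 genes was 0.12, against -0.02 over all genes. The SD of a gene within its group ran from 0.05 to 0.30 in IkL/L and from 0.04 to 0.30 in WT (n = 3 arrays each).

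**Figure D1:**
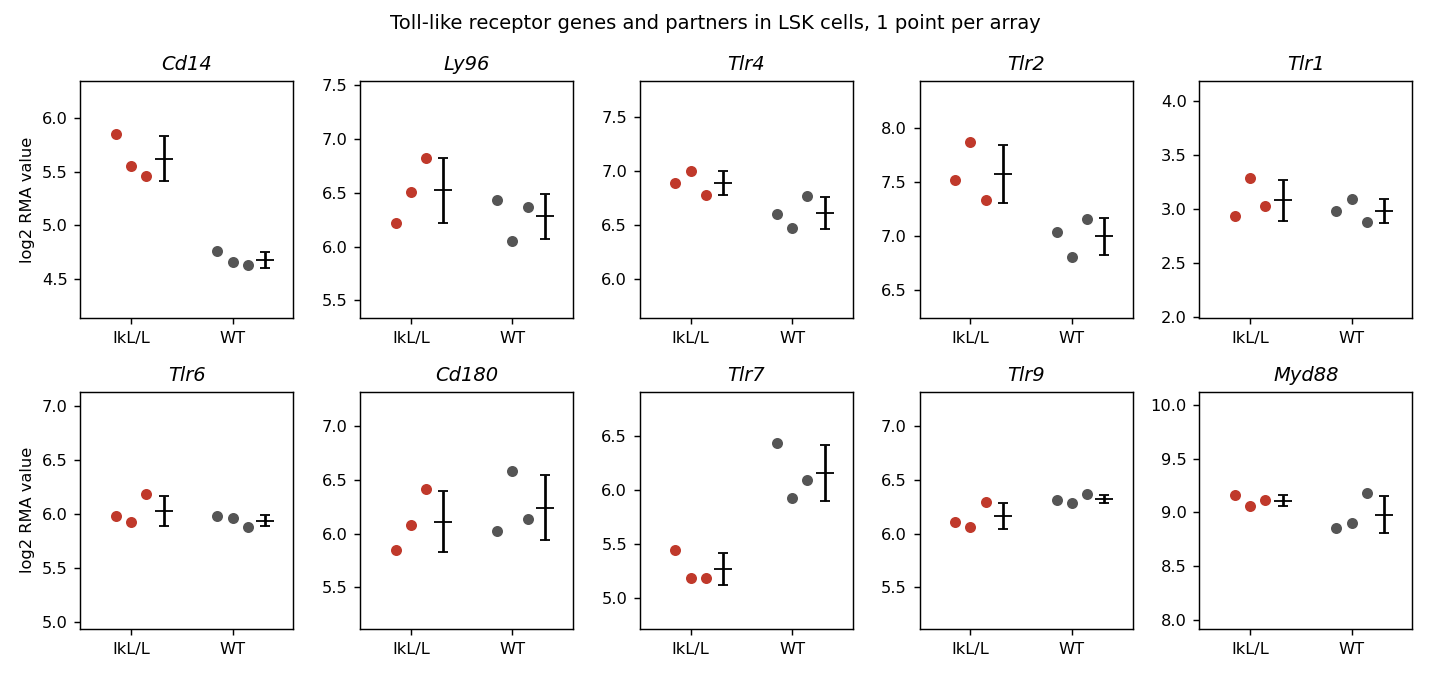
Log2 RMA value (vertical axis, the same span of 2.2 units in every panel, not starting at 0) of each gene on the 3 IkL/L arrays (red) and the 3 WT arrays (grey), read from its brightest probe set, with mean and SD as black bars. The groups are apart in Cd14, Tlr4, Tlr2 and Tlr7, and overlap in the other 6 genes.

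Among the genes of lipopolysaccharide recognition, Cd14 rose while its receptor and the other subunit did not pass. Cd14 read 5.85, 5.55 and 5.46 on IkL/L 1, 2 and 3, against 4.76, 4.66 and 4.63 on WT 1, 2 and 3. All 3 IkL/L arrays thus stood above all 3 WT arrays, with a gap of 0.70 between the nearest values of the groups. The means were 5.62 ± 0.21 in IkL/L and 4.68 ± 0.07 in WT (SD, n = 3 each), and these readings differed by 0.93 on the log2 scale with a 95% interval from 0.65 to 1.22 (adjusted p = 0.021 in limma). The WT level lay under the median of every WT array, so the difference and its interval describe the readings, do not measure the size of the change in Cd14 RNA, and are not given as a fold. In bulk samples such as these, more cells of a type that carries Cd14 and more Cd14 RNA per cell cannot be told apart. The call was lost when any array other than IkL/L 3 was left out: the adjusted p was 0.0775 without IkL/L 1 and 0.0688 without IkL/L 2. It was 0.104, 0.0648 and 0.0539 without WT 1, WT 2 and WT 3, and 0.0358 without IkL/L 3, with differences of 0.82 to 1.02 over these 6 fits.

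Tlr4 itself read 6.89, 7.00 and 6.78 on the IkL/L arrays, against 6.60, 6.47 and 6.77 on the WT arrays. The groups did not overlap, but the gap between IkL/L 3 and WT 3 was only 0.01. The difference was 0.28 (95% interval 0.01 to 0.54, adjusted p = 0.536). A further probe set of Tlr4 gave 0.31 (0.609) with overlapping groups. The other 2 lay under the array medians on all 6 arrays and gave 0.32 (0.658) and -0.05 (0.915). Such readings cannot be told from background, so the signs of these 2 cannot show whether the probe sets agree. Ly96, which binds the lipid part of lipopolysaccharide within the Tlr4 complex, read 6.22, 6.51 and 6.82 in IkL/L, against 6.43, 6.05 and 6.37 in WT. IkL/L 1 lay below 2 of the WT arrays, and the difference was 0.23 (-0.16 to 0.63, adjusted p = 0.763).

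Lbp, the lipopolysaccharide binding protein of serum and a further gene of this group, stood higher on every IkL/L array without passing. It read 9.63, 9.49 and 9.68 in IkL/L, against 8.88, 8.60 and 9.11 in WT, a difference of 0.74 (0.41 to 1.06, adjusted p = 0.0898). Its other probe set gave 0.50 (adjusted p = 0.166), again with the groups apart.

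Tlr2, which senses bacterial lipoproteins, read 7.52, 7.87 and 7.34 on IkL/L 1, 2 and 3, against 7.04, 6.81 and 7.16 on WT 1, 2 and 3. The groups were apart by 0.19, with the lowest value on WT 2 and the highest on IkL/L 2. The means were 7.58 ± 0.27 in IkL/L and 7.00 ± 0.17 in WT (SD, n = 3 each), a 1.49-fold difference (log2 0.57, 95% interval 0.21 to 0.93) that did not pass (adjusted p = 0.263). It ran from 0.43 without IkL/L 2 to 0.69 without IkL/L 3, and 0.48 was left without WT 2.

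The dimer partners of Tlr2 did not follow it past their spread. Tlr6 read 5.98, 5.93 and 6.19 in IkL/L, against 5.98, 5.96 and 5.88 in WT, a difference of 0.09 (-0.15 to 0.33, adjusted p = 0.859). Tlr1 lay between 2.88 and 3.29 on all 6 arrays, under the array medians throughout, so that its level cannot be told from background in either genotype. Its difference was 0.10 (-0.18 to 0.39, adjusted p = 0.863). The interval of Tlr6 leaves room for an increase of up to 0.33, and that of Tlr1 sets no limit, since its readings are at background. Whether Tlr2 differed from its partners in the size of the change was not tested.

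Of the endosomal receptors, Tlr7 had the smallest p after Cd14 of the 10 genes and stood lower on every IkL/L array. It read 5.45, 5.19 and 5.19 on IkL/L 1, 2 and 3, against 6.44, 5.93 and 6.10 on WT 1, 2 and 3. The highest IkL/L value lay 0.48 under the lowest WT value. The means were 5.27 ± 0.15 in IkL/L and 6.16 ± 0.26 in WT (SD, n = 3 each), a 1.85-fold difference with a log2 value of -0.88 (95% interval -1.23 to -0.54) and an adjusted p of 0.058 in limma, just above the threshold of 0.05. The IkL/L values lay not far above the medians of their arrays (4.8 to 4.84), which limits how well the fold is measured. The other probe sets of Tlr7 gave -0.59 (adjusted p = 0.315) and -0.33 (0.328). Both had all 3 IkL/L values below all 3 WT values, but both lay under the array medians on all 6 arrays. Such readings cannot be told from background, so they cannot show whether the probe sets of Tlr7 agree. Tlr7 passed with an intensity trend and robust moderation (0.0477), with array weights (0.0351) and with the mean of its 3 probe sets (-0.60, 0.043). That mean includes the probe sets at background. Over all alternatives its adjusted p ran from 0.0351 to 0.196.

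Tlr7 lies on the X chromosome, and IkL/L 1, the array with high Xist, had the highest Tlr7 value of its group. Without IkL/L 1 the difference was -0.97 (adjusted p = 0.15 in limma). The part of sex in the values of Tlr7 was not tested. Without WT 1, which had the highest Tlr7 value of all, the difference was -0.74 (0.172).

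Tlr9, the DNA sensor, read 6.11, 6.06 and 6.29 in IkL/L, against 6.31, 6.28 and 6.37 in WT. IkL/L 3 lay above WT 2 by a small margin, and the difference was -0.16 (-0.39 to 0.07, adjusted p = 0.716). Unc93b1, which escorts the endosomal receptors out of the endoplasmic reticulum, read 8.09, 8.39 and 8.48 in IkL/L, against 7.99, 7.66 and 8.16 in WT. Its difference of 0.38 (0.01 to 0.75, adjusted p = 0.547) had the sign opposite to those of Tlr7 and Tlr9. Tlr8, the neighbour of Tlr7 on the X chromosome, lay between 3.46 and 3.82 on all 6 arrays, under the array medians.

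Cd180 and its partner Ly86 gave unlike values. Cd180 read 5.85, 6.08 and 6.41 in IkL/L, against 6.02, 6.58 and 6.13 in WT, with a difference of -0.13 (-0.57 to 0.30, adjusted p = 0.887). Its groups overlapped over most of their range, and without WT 2 the difference was 0.03. Ly86, without which Cd180 does not reach the cell surface, read 9.07, 9.04 and 9.52 in IkL/L, against 8.24, 8.45 and 8.31 in WT. The groups were apart by 0.59, and the difference of 0.87 (1.83-fold, 95% interval 0.54 to 1.21) just missed the threshold (adjusted p = 0.0554 in limma). The difference between the 2 genes was not tested.

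Myd88, the shared adaptor, read 9.16, 9.06 and 9.12 in IkL/L, against 8.86, 8.90 and 9.18 in WT. The highest value of all was that of WT 3, and the difference was 0.14 (-0.12 to 0.40, adjusted p = 0.796).

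**Figure D2:**
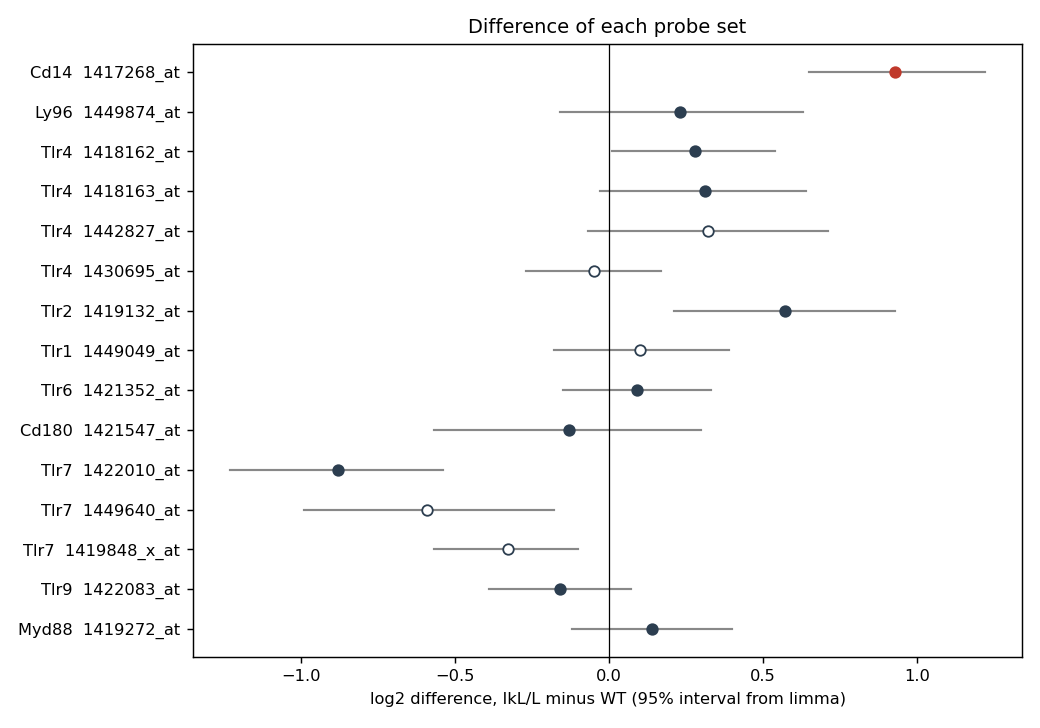
Log2 difference between IkL/L and WT (horizontal axis, with the 95% interval from limma as a line) of the 15 probe sets, grouped by gene. Red marks the 1 probe set that passed, that of Cd14, and open points the 5 probe sets under the array medians on all 6 arrays. The 3 probe sets of Tlr7 all lie below 0, and 3 of the 4 of Tlr4 lie above it. The open points among them cannot show whether the probe sets of a gene agree.

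Among all 15 probe sets, 1 passed, against 0.557% of all probe sets (0.424% higher and 0.133% lower), and the groups were apart in 6, against 14.4%. All 3 probe sets of Tlr7 were among these 6, but only the brightest of them lay above the array medians.

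Promoter windows were searched for the motif that the study found under Ikaros peaks in thymocytes, which is AGGAAG with a final G or AGGAAA with a final A, and for TGGGAA, a classical core of Ikaros sites. Both strands were read in windows from RefSeq (GRCm38.p6), which hold 250 bases before and 50 bases from each start. Windows were held for 6 of the 10 genes, 9 in all, and Tlr4, Tlr7, Cd14 and Ly96 were not analysed in this respect. At least 1 motif was found in 8 of the 9 windows, against 64.7% of all 32851 windows. Both windows of Cd180 are among the 8, and they share nearly all of their bases and hold the same matches, so that 1 sequence is counted there more than once. TGGGAA was found in Tlr2, Tlr6, Tlr9 and Cd180, against 25.6% of all windows, AGGAAG in Tlr1, Tlr2, Tlr6 and Tlr9, against 35.4%, and AGGAAA in Cd180 and Myd88, against 29.1%. Genes with several windows had more chances to hold one, and no matches overlapped. The windows of Tlr2 (chr3:83841559-83841858, minus strand), whose values were apart and higher in IkL/L, and of Tlr9 (chr9:106222348-106222647, plus strand), whose values overlapped, are shown because each holds 1 TGGGAA and 2 AGGAAG while their readings differed. Matches are in capitals, in either orientation, and the sequences run 5′ to 3′.
Tlr2: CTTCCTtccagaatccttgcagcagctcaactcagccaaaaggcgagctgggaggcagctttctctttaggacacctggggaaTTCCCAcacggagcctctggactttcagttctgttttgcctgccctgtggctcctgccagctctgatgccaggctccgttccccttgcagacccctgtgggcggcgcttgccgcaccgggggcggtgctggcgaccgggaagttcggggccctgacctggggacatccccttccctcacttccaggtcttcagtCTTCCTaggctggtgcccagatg
Tlr9: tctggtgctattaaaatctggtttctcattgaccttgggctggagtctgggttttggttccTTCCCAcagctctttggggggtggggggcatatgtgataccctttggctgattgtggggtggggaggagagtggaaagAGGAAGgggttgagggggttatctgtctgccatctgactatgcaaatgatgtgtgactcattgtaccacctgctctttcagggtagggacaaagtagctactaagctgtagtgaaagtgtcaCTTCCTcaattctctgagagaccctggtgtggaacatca
A match of letters is a description of the window and no measure of binding.

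The other genes of the pathway were taken from lists of receptors, accessory genes, adaptors, kinases, NF-kB proteins, inhibitors and response genes, of which 59 of 67 were measured. None passed in limma, while 10 had an unadjusted p under 0.05 (6 higher and 4 lower), beside 11.2% of all genes. Their median difference was -0.02, the same as over all genes. Groups were apart in 5 higher and 5 lower genes, where 17.2% of all genes were apart.

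Of the other Toll-like receptors, none of 5 passed and 4 lay under the array medians on all 6 arrays. Tlr12 read 5.44, 5.22 and 5.65 in IkL/L, against 4.88, 5.01 and 4.94 in WT, a difference of 0.49 (adjusted p = 0.224), but its other probe set gave 0.01. The WT values of Tlr12 lay close to the array medians, so 0.49 does not measure the size of a change. Tlr3, the sensor of double-stranded RNA, gave 0.38 (0.304) at values of 4.13 to 4.70, with another probe set at -0.06. Both probe sets of Tlr3 lay under the array medians on all 6 arrays, and such readings cannot show whether the gene changed.

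None of the measured adaptors, kinases, ubiquitin ligases and NF-kB proteins passed. Among 11 kinases and ubiquitin ligases, Traf6, the ubiquitin ligase downstream of Myd88 and the Irak kinases, read 7.50, 7.56 and 7.51 in IkL/L, against 7.80, 7.92 and 7.86 in WT. The groups were apart by 0.24, and the difference of -0.34 did not pass (adjusted p = 0.245). Its other 4 probe sets gave -0.24 to -0.12. Ikbke gave 0.33 (0.589) and Tab3 gave -0.23 (0.615). The adaptors Pik3ap1, Sarm1 and Ticam1 gave -0.37 (0.548), -0.12 (0.79) and 0.08 (0.895). All 6 measured NF-kB proteins and kinases lay between -0.16 (Rel, adjusted p = 0.719) and 0.02, with Nfkb2 at -0.07 (0.911) and Ikbkg at -0.05 (0.934).

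Of 10 inhibitors of the pathway, Irak3 had the smallest p. Irak3 (IRAK-M), a member of the Irak family that restrains signalling in monocytes and macrophages, read 8.42, 8.59 and 8.20 in IkL/L, against 7.80, 7.69 and 7.74 in WT. The groups were apart by 0.40, and the difference of 0.66 (1.58-fold, 95% interval 0.39 to 0.94) did not pass (adjusted p = 0.0725). Its other probe set gave 0.51 (0.491), also with the groups apart. Cyld, a deubiquitinase, gave -0.25 (0.487) and Socs1 gave 0.31 (0.578).

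None of the 17 genes induced by Toll-like receptor signalling passed, and 6 had a difference above 0, beside 8087 of all 18193 genes. Of the 17, 5 (Il6, Il10, Il12b, Ifnb1 and Nos2) lay under the array medians on all 6 arrays, and such readings cannot show whether the gene changed. Cd86, a costimulatory ligand, read 5.74, 6.08 and 5.45 in IkL/L, against 6.67, 6.43 and 6.12 in WT, a difference of -0.65 (adjusted p = 0.315). The neutrophil chemokine Cxcl2 read 5.48, 8.29 and 4.30 in IkL/L, against 3.10, 5.14 and 4.59 in WT. Its difference of 1.75 (0.668) was 0.61 without IkL/L 2, and the groups overlapped. Ccl5 gave -0.27 (0.721). The cytokine gene Tnf differed by -0.04 (0.954), and Il1b, whose values lay close to the array medians, by -0.03 (0.958). Both were chosen after their values were seen, as defining products of these receptors.

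**Figure D3:**
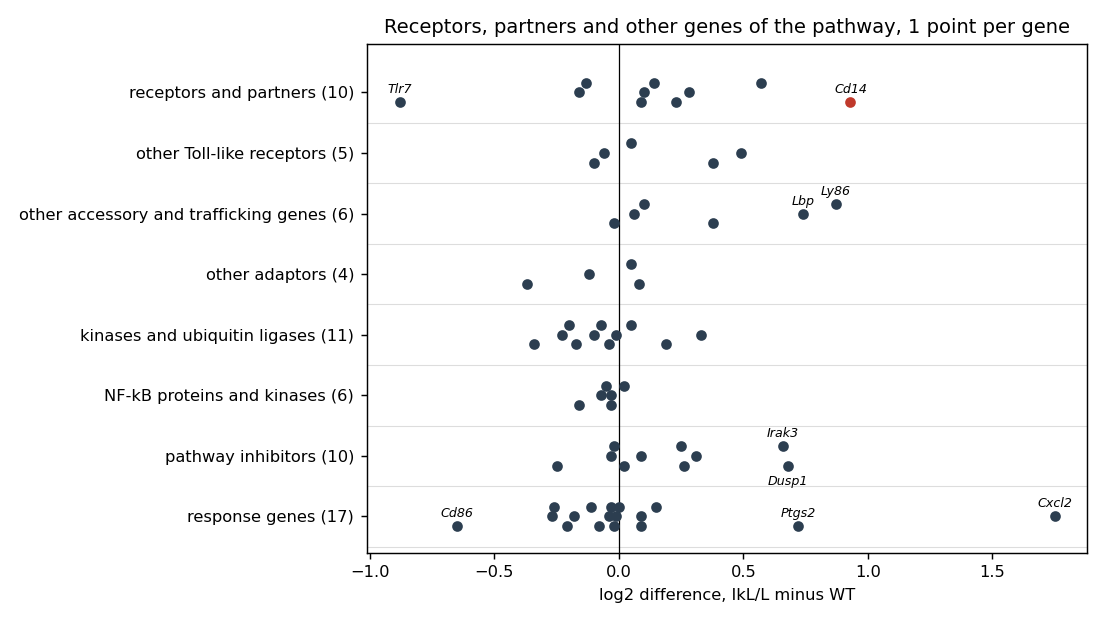
Log2 difference between IkL/L and WT (horizontal axis) of each gene, 1 point per gene, by list, with the number of measured genes in brackets and genes beyond 0.6 in either direction named. Red marks Cd14, the 1 gene that passed. The NF-kB proteins and kinases lie closest together, between -0.16 and 0.02.

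The 5 genes whose profile over the 6 arrays lay closest to that of Cd14 were L3hypdh, Lyz2, Daam1, Ralb and Dock9. Profiles were centred on their means, and likeness was the root mean square difference on the log2 scale, which was 0.09 for L3hypdh, 0.12 for Lyz2 and Daam1, 0.13 for Ralb and 0.14 for Dock9. Lyz2, the lysozyme gene of monocytes, macrophages and granulocytes, read 11.26, 11.08 and 10.73 in IkL/L, against 10.34, 10.28 and 10.20 in WT, a difference of 0.75 (adjusted p = 0.0871). L3hypdh gave 0.81 (0.0553) with WT values under the array medians, the formin Daam1 0.74 (0.021), the small GTPase Ralb 0.88 (0.0191) and Dock9, an exchange factor of small GTPases, 0.98 (0.0127). In all 5 every IkL/L array stood above every WT array and IkL/L 1 was the highest array, which follows from their choice by likeness to Cd14 on these same arrays and is no separate result.

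**Figure D4:**
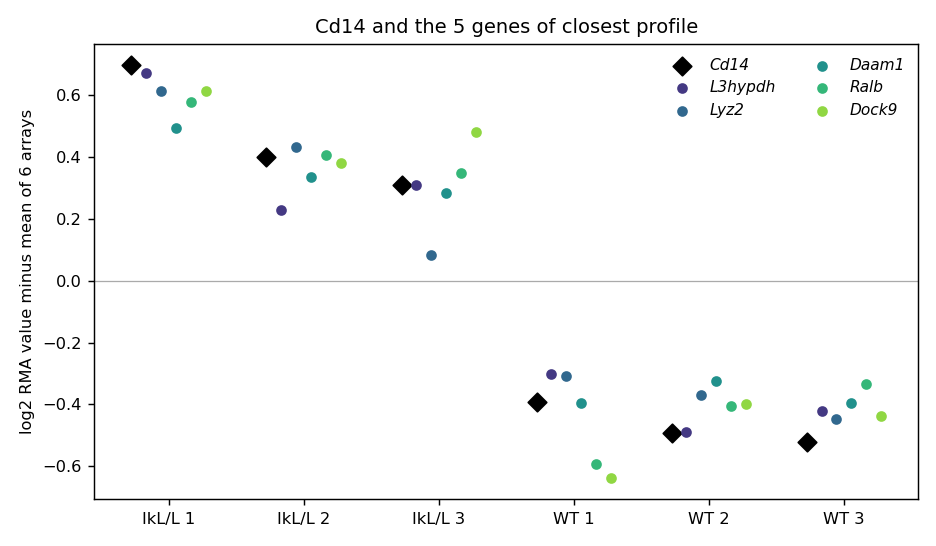
Log2 RMA value minus the mean of the 6 arrays (vertical axis) on each array (horizontal axis) for Cd14 (black diamonds) and the 5 genes of closest profile (coloured points). IkL/L 1 is the highest array for each of the 6 genes, as the choice of genes by profile makes likely.

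Markers of myeloid cells, which carry Cd14 when mature, were followed on the same arrays, beside 0.748% of all genes that rose. Over all 18193 genes, the groups were apart and higher in 7.62% and lower in 9.59%, and 8087 had a difference above 0. Of 10 measured monocyte and macrophage markers 2 rose, Csf1r, the receptor of M-CSF (1.76, adjusted p = 0.002), and the chemokine receptor Ccr2 (1.41, 0.0174). Other probe sets of Ccr2 gave 0.45 (0.644) and 0.03 (0.964) with overlap, and 1.05 (0.179) with the groups apart and WT under the medians. In the list, 5 of the 10 had a difference above 0, the median was -0.01 and the groups were apart in 4, all higher. Cd68 (1.17, 0.0651) and Lyz2 were apart without passing. The mean of the list was 6.49, 6.52 and 6.37 on the IkL/L arrays, against 6.41, 5.93 and 6.26 on the WT arrays. Vcam1 gave -1.11 (0.625), the macrophage gene C1qa gave -0.87 (0.5), Adgre1 gave 0.11 (0.81), and Marco and C1qb lay under the array medians throughout. Itgam, which encodes the CD11b that the sort removed, lay under the median on 5 of 6 arrays. Of 10 neutrophil lineage markers 2 rose, Ms4a3 (2.38, 0.0175) and Elane (2.16, 0.0312). Ctsg (1.12, 0.0748), Prtn3 (0.69, 0.115) and Mpo (0.35, 0.335) had the groups apart and higher without passing. The groups overlapped in S100a8 (1.52, 0.578), S100a9 (0.48, 0.737), Ngp (0.35, 0.676) and Camp (0.08, 0.951), and Ltf lay under the medians throughout. Of the 10, 9 had a difference above 0, the groups were apart in 5, all higher, and the means were 8.68 to 9.12 in IkL/L and 7.79 to 8.11 in WT. Their part in the values of Cd14, Tlr2, Ly86, Lbp and Irak3 was not tested.

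Lymphoid and dendritic cells, which carry Tlr7, Tlr9 and Cd180, were followed likewise, beside the same 0.748% of all genes. Over all genes, the groups were apart and higher in 7.62%, and apart and lower in 9.59%. Of 9 B cell markers 1 rose, Ms4a1 (readings 2.38 apart, 0.0165), whose WT values lay under the array medians. The groups were also apart and higher in Ighm (1.37, 0.231), Blk (0.69, 0.193) and Cd79b (0.40, 0.388), which did not pass. Pax5 (-0.22, 0.736), Cd79a (0.23, 0.758) and Cd22 (0.24, 0.807) had overlapping groups. Ebf1 (-0.23, 0.729), apart and lower, and Fcrla (-0.10, 0.867) lay under the medians throughout. Of the 9, 6 had a difference above 0, beside 8087 of all 18193 genes. The means of the B cell list were 5.80 to 6.26 in IkL/L and 5.44 to 5.49 in WT. Of 11 dendritic cell markers 2 rose, Cd74 (1.46, 0.0317) and H2-Eb1 (1.38, 0.0424), and the means overlapped at 5.68 to 5.98 in IkL/L and 5.50 to 5.75 in WT. Siglech, a defining marker of plasmacytoid dendritic cells, lay between 4.28 and 4.44 on all 6 arrays, under the medians. Batf3, Xcr1 and Cd209a also lay under the medians throughout, and Zbtb46 gave 0.08 (0.865) with overlapping groups. The groups were apart in 4 higher and 2 lower dendritic cell markers. H2-Ab1 gave 0.91 (0.1) and Bst2 gave 0.43 (0.633), higher on every IkL/L array, and Itgax (CD11c) gave -0.58 (0.0764) and Ccr9 gave -1.47 (0.208), lower on every IkL/L array. The other 4 probe sets of Ccr9, under the medians throughout, gave -0.11 to 0.07. Flt3, the receptor of lymphoid-primed progenitors, stood at 9.56 to 10.05 in IkL/L and 10.31 to 10.97 in WT (-0.88, 0.132). None of 8 stroma markers passed, and their means were 5.55 to 5.74 in IkL/L and 5.82 to 6.98 in WT, lower on every IkL/L array. The WT arrays were uneven, at 6.98, 6.28 and 5.82 on WT 1, 2 and 3. The groups were apart and lower in 3, Col1a1 (-1.43, 0.303), Dcn (-0.88, 0.501) and Lepr (-0.32, 0.509). The gap was 0.28 in Col1a1, but only 0.01 in Lepr and 0 after rounding in Dcn. None of 8 measured LSK markers passed either, but their groups were apart in 1 higher (Gata2, 0.3, 0.631) and 3 lower (Flt3, Hlf and Mecom). Hlf gave -0.59 (0.447) and Mecom -0.47 (0.328), and Procr gave 0.69 (0.409) with overlapping groups. An unadjusted p under 0.05 was found in 1 higher and 3 lower LSK markers, against 11.2% of all genes. The part of these cell types in the values of Tlr7 was not tested.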

How the data were processed

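The values deposited by the authors are on the log2 scale and come from RMA: background correction, quantile normalization and a median polish over the probes of each probe set. R 2.8 is listed in the submitters' notes. RNA had been amplified in a 2-cycle reaction. The methods state joint normalization with thymocyte arrays, and the sources do not say whether these values stem from it. RMA removes changes in total RNA and gives no detection call. Scanner files and genome positions of probes were not analysed here, and the number of arrays limits precision.

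All 6 columns matched a sample. Gene names came from GEO's platform annotation, with 34741 of 34945 single-gene probe sets updated by Entrez number (RefSeq, GRCm38.p6). A gene was read from its probe set of highest mean. Groups were compared with limma 3.58.1 in R 4.3.3 (lmFit, eBayes, genotype only, two-sided, Benjamini-Hochberg over 45037 probe sets, threshold 0.05), after tests on simulated data. P-values measure the spread between 3 samples per group.

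The text names all 10 genes, of each other pathway list those that passed or up to 3 with the smallest p, and the 5 closest profiles to the gene of smallest p. The genes, lists and tests were chosen with earlier results of these data known. Markers of other cells that did not pass were picked from their lists after their values were seen. Alternatives were a second quantile normalization, median centring, 2 filters on dim values, a moderation trend over intensity, array weights, the replicate number as a block, averaging the probe sets of each gene, and leaving out each array.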

Additional observations from a re-analysis of the deposited data

How the results depend on the processing

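Of the 10 genes, Cd14 alone passed in the chosen fit. With an intensity trend and robust moderation, with array weights and with probe sets averaged per gene, 2 passed (Cd14 and Tlr7). At a mean of at least 6, which leaves out Cd14 by construction, 0 passed, and 0 to 1 passed when 1 array was left out. The counts over the 15 probe sets were 2 with a trend or weights, 0 at a mean of at least 6, and 0 to 1 without 1 array. Of the 59 other pathway genes 0 passed in the chosen fit, 1 with a trend (Ly86), 3 with array weights and 3 with the mean of probe sets (Ly86, Lbp and Irak3 in both), and 0 to 1 without 1 array (Lbp without WT 3). The fit on means of probe sets adjusts over 18193 genes, fewer than the 45037 probe sets, and its count over all genes was not taken. Over all probe sets 251 passed in the chosen fit, 325 with a trend, 355 with array weights and 180 at a mean of at least 6. Without 1 array, 57 to 287 passed, with 57 without WT 1, 67 without IkL/L 1, 142 without IkL/L 2 and 143 without WT 2. These fits had 1 sample fewer, and the cause was not tested further.

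Deviations of samples with equal replicate numbers correlated at 0.01, -0.11 and 0.08, so the numbers were not taken as pairs. With the replicate block, 143 probe sets passed and Cd14 kept its call (adjusted p = 0.0484), and the block changed no other call among the named genes.

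Of 420 values for 31 named genes under these alternatives, 400 kept their direction and side of the threshold. The filters gave no value for genes they removed. The differences that changed sign were near 0. Without 1 array, Tlr1 ran from -0.00043 (without IkL/L 2) to 0.18, Cd180 from -0.28 to 0.03 (without WT 2), Nfkb2 from -0.18 to 0.03 (without WT 1) and Ikbkg from -0.13 to 0.05 (without IkL/L 1). Levels of Tlr1 and of Cd14 in WT near background limit what these arrays can show.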

Other observations

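Some genes that are switched on quickly after signalling were highest on IkL/L 2, and they were chosen after their values were seen. Tnfaip3, the deubiquitinase A20, read 7.86, 9.14 and 7.25 on IkL/L 1, 2 and 3, against 7.81, 7.99 and 7.71 on WT 1, 2 and 3. Dusp1, a phosphatase of MAP kinases, read 11.19, 12.47 and 10.33 in IkL/L, against 10.05, 10.97 and 10.93 in WT. Ptgs2, the inducible cyclooxygenase, read 3.69, 5.76 and 3.48 in IkL/L, against 3.43, 3.83 and 3.50 in WT, and Nfkbia, the inhibitor of NF-kB, read 12.28, 12.56 and 12.01 in IkL/L, against 11.99, 12.17 and 11.91 in WT. None of these 4 genes passed in limma (adjusted p = 0.907, 0.764, 0.764 and 0.693), and the groups overlapped in the brightest probe set of each. Other probe sets of Nfkbia gave 0.55 (adjusted p = 0.296), 0.40 (0.452) and 0.39 (0.3), with the groups apart and higher in IkL/L. A further one gave 0.25 (0.732) with overlapping groups. The other probe set of Tnfaip3, under the array medians on all 6 arrays, gave 0.26 (0.469) with the groups apart. Tlr2 and Tlr4 were also highest on IkL/L 2, whereas Cd14 was highest on IkL/L 1.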
